A study of Mus musculus with 7 samples.

Results

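The Pax7 and Pax3 loci were examined in chromatin accessibility data from freshly sorted muscle stem cells (MuSCs). The loci were 2 of 21883 protein-coding genes. Each was taken as the span that RefSeq gives the gene on mm10 plus 50 kb on both sides, and every called peak that overlapped this window was kept. Merged over all libraries, the peaks formed 44 of 95163 regions of the genome, 35 at Pax7 and 9 at Pax3. ATAC-seq (a sequencing assay in which the Tn5 transposase cuts open chromatin) had been run on 5000 sorted cells per library. There were 4 Nedd4L-cKO libraries, from Nedd4L fl/fl Pax7 cre/+ mice in which exon 15 of Nedd4l, a gene for an E3 ubiquitin ligase, is removed in Pax7-expressing cells, and 3 WT libraries, labelled Nedd4L-WT. The cells came from the hindlimb muscles of young male mice on a C57BL/6 background and were sorted as ITGA7+ cells that lacked CD31, CD45, CD11b and SCA1. The Pax7-Cre driver is a knock-in at Pax7 itself, so Nedd4L-cKO mice carried a modified Pax7 allele, and the deletion passes to the progeny of the cells, such as myofiber nuclei. Whether the WT mice carried Cre or floxed alleles is not given in the sources used here, so an effect of the Cre allele on the Pax7 locus and an effect of Nedd4l loss cannot be told apart.

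PAX7 and PAX3 are closely related paired-box transcription factors that bind DNA through a paired domain and a homeodomain. PAX3 acts early, in somites and in the progenitors that migrate into the limbs, while PAX7 marks the stem cells of adult muscle and is needed to keep them. PAX3 persists in only some adult MuSCs, more in certain muscles such as the diaphragm than in most hindlimb muscles. Both recruit histone methyltransferase complexes to muscle genes such as Myf5.

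Pax7 lies on the minus strand of chromosome 4, at 139737059 to 139833530, with annotated transcription start sites (TSSs) at 139832968 and 139833530. The uncharacterised long noncoding RNA gene Gm46873 begins on the opposite strand, with starts 62 bp inside the Pax7 span and 210 bp upstream of the nearest Pax7 start. Pax3 lies on the minus strand of chromosome 1, at 78101267 to 78197136, with its TSS at 78197136. The next protein-coding start in the Pax3 window is that of Gm2102, at -21134 bp (negative is upstream). The RefSeq promoter sequences (GRCm38.p6, the assembly of mm10) of Pax7, Gm46873 and Gm2102 are shown as the sequence under the peaks described here, which covered them in all 7 libraries. Each holds 250 bases before and 50 after a start, and capitals mark matches, on either strand, to the TATA box (TATAAA), the CCAAT box, the GC box (GGGCGG), the E-box (CANNTG) and a homeodomain sequence (TAATTA). The windows lie at chr4:139832919-139833218 on the minus strand for Pax7, chr4:139833218-139833517 on the plus strand for Gm46873 and chr1:78218221-78218520 on the minus strand for Gm2102.

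Pax7: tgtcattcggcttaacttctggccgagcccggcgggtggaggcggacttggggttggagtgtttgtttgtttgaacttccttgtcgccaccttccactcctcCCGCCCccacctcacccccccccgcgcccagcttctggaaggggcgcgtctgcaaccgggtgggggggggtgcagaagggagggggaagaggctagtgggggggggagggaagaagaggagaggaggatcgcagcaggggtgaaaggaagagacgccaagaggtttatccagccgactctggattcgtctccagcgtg

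Gm46873: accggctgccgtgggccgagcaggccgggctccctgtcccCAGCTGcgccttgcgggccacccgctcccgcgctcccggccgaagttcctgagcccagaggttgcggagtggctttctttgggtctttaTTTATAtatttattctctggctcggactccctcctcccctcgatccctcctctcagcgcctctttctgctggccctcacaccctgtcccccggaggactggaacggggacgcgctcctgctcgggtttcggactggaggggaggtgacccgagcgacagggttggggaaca

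Gm2102: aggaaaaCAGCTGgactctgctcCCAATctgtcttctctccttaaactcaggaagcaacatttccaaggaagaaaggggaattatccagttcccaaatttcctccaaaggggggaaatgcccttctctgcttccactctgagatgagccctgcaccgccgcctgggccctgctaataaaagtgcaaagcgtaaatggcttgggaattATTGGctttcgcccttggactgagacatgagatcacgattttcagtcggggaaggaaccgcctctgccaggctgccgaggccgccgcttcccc

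The Pax7 promoter sequence, which is that of the inner start (139832968), was rich in CpG. It held 17 CpG dinucleotides in 300 bases, more than 68.6% of 32851 mouse promoters of the same length, and 63.7% G or C, more than 79.1% of them. Its single motif match was to GGGCGG, the GC box, on the opposite strand at -148 to -143 from the inner start, and 35.7% of all promoters held this motif. The TATA box, the CCAAT box, the E-box and the homeodomain sequence had 0 matches in it, beside 13.6%, 37.4%, 72.3% and 5.29% of all promoters with a match. The bases upstream of the outer Pax7 start (139833530) were not searched. The adjoining Gm46873 promoter held 23 CpGs, 1 E-box and, on the opposite strand, 1 TATA box, and the Gm2102 promoter held 10 CpGs, 1 E-box and 2 CCAAT boxes.

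The libraries held 14.4 to 20.1 M tags (M, mega) after duplicates were dropped and 69302 to 79158 peaks, with the tags of the genotypes overlapping (exact permutation test, two-sided, p = 0.657). WT replicate 3 was the only library from lane 2. Leaving it out gives the comparison within lane 1, and lane 2 holds 1 library of 1 genotype. The targeted gene Nedd4l had 31 to 35 peaks per library in its span. It had 0 within 1 kb of the start sites used here in all 7, and other possible starts were not examined. The floxed exon was not located, so the lists do not show the deletion. Of protein-coding genes with a TSS, 63.4% had a peak within 1 kb of it in all 7 libraries and 31.3% in none. Of the MuSC markers, 8 of 8 (Pax7, Myf5, Calcr, Vcam1, Itga7, Cdh15, Sdc4 and Chrdl2) had one in every library. Of the leukocyte markers, 0 of 4 did in any library (Ptprc, Itgam, Cd68 and Cd3e). Of the endothelial markers, Kdr and Tek had one in all 7 libraries and Pecam1 and Cdh5 in none. Of the fibro-adipogenic markers, Dpt had one in all 7, Lum in 1, and Pdgfra and Ly6a in none. Of the myofiber markers, Acta1 and Myh4 had one in all 7, Ckm in 5 and Ttn in 3. The embryonic gene Pou5f1 had none. Whether cells of these other types were present, and had a share in the peaks at Pax7 and Pax3, was not tested.

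The Pax7 locus was densely accessible, whereas the Pax3 locus held about as many peaks as a typical gene. In the Pax7 window, Nedd4L-cKO replicates 1 to 4 had 28, 28, 26 and 31 peaks and WT replicates 1 to 3 had 27, 25 and 31. In the Pax3 window, the same libraries had 7, 8, 10 and 8 peaks and 9, 8 and 9 peaks. The windows are nearly equal in size (196.5 and 195.9 kb), and every library had 2.6 to 4 times as many peaks at Pax7 as at Pax3. At Pax7 this came to 14.3 peaks per 100 kb, more than in the window of 99.0% of protein-coding genes, whose median was 4.41 peaks per 100 kb. At Pax3 it was 4.30 peaks per 100 kb, more than in 49.1% of the windows. Among 1264 genes of similar span the ranks were much the same, above 99.3% for Pax7 and above 50.8% for Pax3.

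The length of DNA under peaks followed the same order. At Pax7, peaks covered 28.4, 28.1, 22.6 and 29.4 kb in the Nedd4L-cKO libraries and 25.0, 25.6 and 26.7 kb in the WT libraries, which is 11.5 to 14.98% of the window. At Pax3, they covered 7.96, 9.33, 9.18 and 9.03 kb and 8.95, 9.70 and 9.43 kb, which is 4.06 to 4.95% of the window. The values of the genotypes overlapped at both loci.

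**Figure D1:**
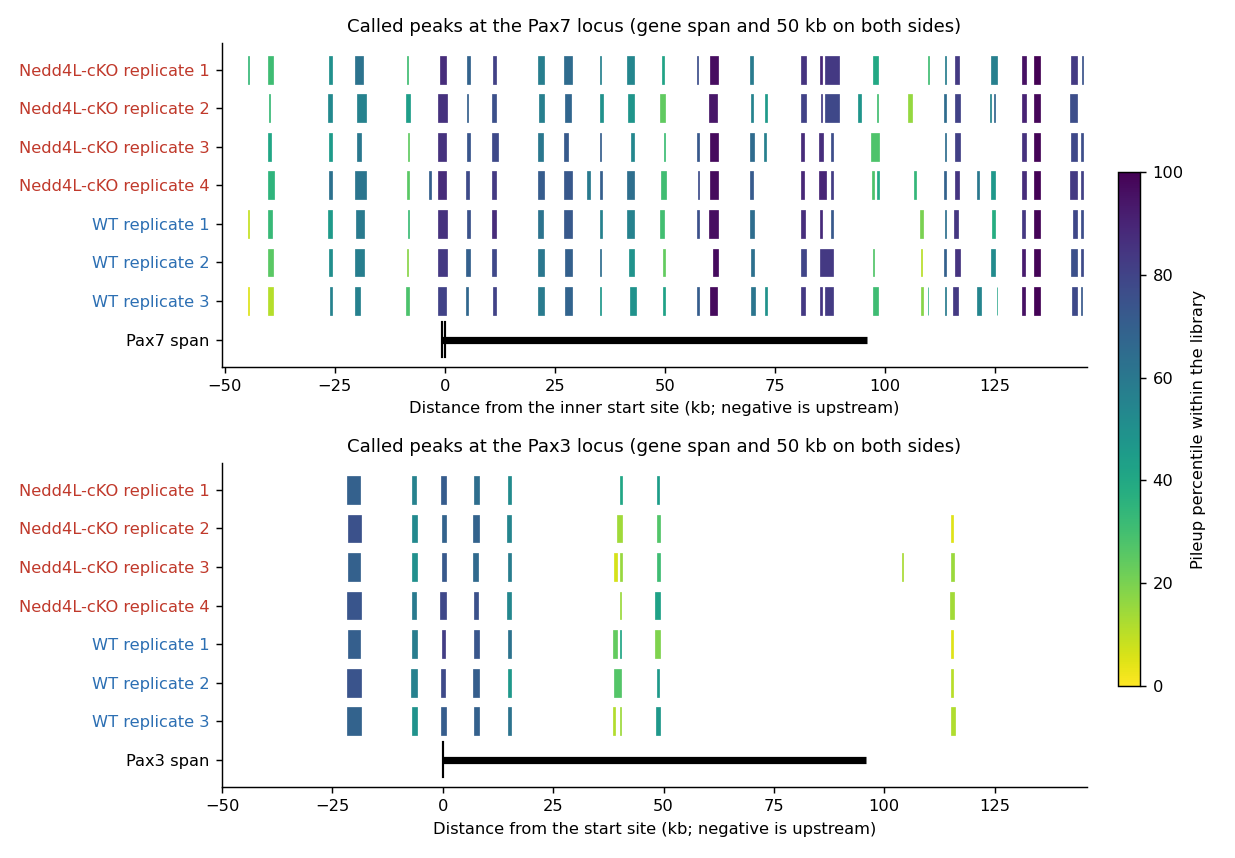
Called peaks in each of the 7 libraries at the Pax7 locus (top) and the Pax3 locus (bottom), drawn by distance in kb from the inner Pax7 start and from the Pax3 start (negative is upstream), with the gene span as a black bar and start sites as ticks. Colour gives the pileup percentile of each peak among all peaks of its library. The Pax7 window holds 25 to 31 peaks per library and the Pax3 window 7 to 10 over 196.5 and 195.9 kb.

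Of the 35 Pax7 regions, 21 (60%) were called in all 7 libraries and 5 in 1 library, shares near those of all regions of the genome (56% and 14.7%). The 21 comprised the promoter, 11 of 15 regions in the gene body, 4 of 6 upstream and 5 of 13 downstream. At Pax3, 7 of 9 regions were called in all 7 libraries: the promoter, 4 of 4 in the gene body and 2 of 2 upstream. All 4 gene-body regions of Pax3 were centred within 48.6 kb of the TSS. The other 2 Pax3 regions lay downstream, 1 in 6 libraries and 1 in 1 library.

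The strength of a peak is given by a pair of measures from the authors' peak caller. The pileup is the coverage of extended tags over the peak, and the fold enrichment is the pileup over the local background, the larger of the genome-wide level and the level in the surrounding 10 kb. Since neither is scaled between libraries, each was ranked within its library, and a percentile is the share of the library's peaks with a lower value. The Pax7 promoter was a single peak in every library. Its pileup was 39.1, 34.5, 37.4 and 44.9 in Nedd4L-cKO replicates 1 to 4 and 39.5, 36.8 and 30.1 in WT replicates 1 to 3. These values put it at the 87.3rd, 85.6th, 85.9th and 87.6th percentile in Nedd4L-cKO and at the 85.8th, 83.6th and 80.4th in WT. By fold enrichment the same peak was low in its library, at 3.15, 2.78, 2.77 and 2.51 in Nedd4L-cKO and at 2.55, 2.64 and 2.66 in WT. The percentiles of fold were 25.9, 12.1, 11.5 and 6.02 in Nedd4L-cKO and 5.91, 7.42 and 5.74 in WT, and Nedd4L-cKO replicate 1 stood above the other 6 libraries.

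The gap between the 2 ranks of the Pax7 promoter can be restated as a high local background. That background was computed from the pileup and the fold themselves, so it is not a separate measurement. The background that the fold implies there was 6.54 to 8.04 times the genome-wide level, which is above that of 94.3 to 97.0% of the peaks in the library, and the median peak had 1.69 to 1.84 times. The Pax7 promoter peak was also long, at 1528, 1958, 1923 and 1961 bp in Nedd4L-cKO and 2034, 1975 and 1942 bp in WT. It reached 564 to 1033 bp upstream and 948 to 1005 bp downstream of the outer start, so that it covered both Pax7 starts and both Gm46873 starts in all 7 libraries. ATAC-seq tags carry no strand, and the signal of the 2 genes cannot be told apart. Among the 13590 protein-coding genes with a promoter peak in all libraries, the median over libraries was higher for Pax7 than for 47.3% by pileup percentile, 2.46% by fold percentile and 85.1% by length.

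The promoter was not the strongest site at Pax7. It ranked 4th to 8th by pileup among the peaks of its window in each library. The strongest in 7 of 7 libraries lay 38.7 kb past the 3′ end of Pax7, at chr4:139697624-139699085, with pileups of 76.04, 57.7, 65.3 and 78.9 in Nedd4L-cKO and 69.0, 67.3 and 67.9 in WT. Its pileup percentile was 98.3 to 99.6 and its fold percentile 31.8 to 49.9. The strongest site inside the gene was 61.1 kb downstream of the inner start, at chr4:139770779-139772871, with pileups of 56.1, 45.2, 57.5 and 63.9 in Nedd4L-cKO and 55.7, 58.1 and 54.0 in WT. It stood at the 93.8th to 97.6th percentile of pileup and the 41.7th to 63.6th of fold. Another region, 35.7 kb past the 3′ end at chr4:139700902-139701808, had a pileup percentile of 83.9 to 95.5 and a fold percentile of only 0.412 to 4.76. No exon annotation of mm10 was used here, so whether the sites inside the gene lie in exons or introns was not determined.

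The end of the gene was looked at because Cre is carried at Pax7. The region at chr4:139743346-139747895, 85.1 to 89.6 kb from the inner start, had a pileup percentile of 82.4 to 89.7 in all 7 libraries, but its peaks summed to 3572, 3360, 1270 and 2141 bp in Nedd4L-cKO and 1247, 2964 and 2227 bp in WT. This region was chosen after its values were seen. Long and short versions occurred in both genotypes. In the last 6.29 kb of the gene 1 region was called, in 1 library (Nedd4L-cKO replicate 2, pileup percentile 47.8). The noncoding RNA gene Gm42334, which starts just beyond the 3′ end of Pax7 on the opposite strand, had a peak within 1 kb of its start in 6 of 7 libraries, WT replicate 1 being without one. Where the Cre cassette sits within Pax7 was not determined from the files.

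The Pax3 promoter was a weaker peak by pileup and a stronger one by fold. Its pileup was 24.5, 21.0, 25.8 and 34.3 in Nedd4L-cKO replicates 1 to 4 and 35.1, 30.8 and 23.1 in WT replicates 1 to 3, which is the 71.2nd, 68.6th, 72.4th and 78.4th percentile in Nedd4L-cKO and the 81.7th, 77.4th and 70.9th in WT. Its fold enrichment was 3.97, 3.74, 3.88 and 3.82 in Nedd4L-cKO and 4.35, 4.12 and 4.08 in WT. The local background it implies was 3.00 to 3.92 times the genome-wide level. The peak was short, at 1171, 1092, 904 and 1322 bp in Nedd4L-cKO and 798, 892 and 1036 bp in WT. Among the promoters with a peak in all libraries, Pax3 was above 22.2% by pileup percentile, 27.5% by fold percentile and 17.1% by length.

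The promoter was the strongest Pax3 peak in 6 of 7 libraries and ranked 3rd in Nedd4L-cKO replicate 2. The next by median pileup was a long region over the start of Gm2102 (the sequence shown above), at chr1:78215751-78218883, with pileup percentiles of 69.5, 75.3, 69.4 and 73.7 in Nedd4L-cKO and 69.9, 73.9 and 68.5 in WT. Its peaks were 2840 to 3133 bp long. A region 7.56 kb inside the gene, at chr1:78188887-78190273, stood at the 64.3rd to 75.2nd percentile of pileup and the 56.6th to 80.3rd of fold. A region centred at -6.50 kb, upstream, at chr1:78203037-78204240, stood at the 49.0th to 59.2nd percentile of pileup and the 9.19th to 50.3rd of fold. The start of the noncoding RNA gene Gm33152, at -4086 bp from the Pax3 start, had 0 peaks within 1 kb in all libraries.

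The promoters of the 2 genes were compared within libraries. The pileup percentile of Pax7 exceeded that of Pax3 in 7 of 7 libraries, by 10.8 percentile points on average (SD 4.88, n = 7, range 4.13 to 16.9; exact sign permutation test over all sign patterns, two-sided, p = 0.0156, the smallest it can give). The test asks only whether these 2 chosen promoters kept their order over the libraries of both genotypes. By fold enrichment the order was the opposite in 7 of 7 libraries, with Pax7 lower by 31.7 to 65.7 percentile points. Of the regions called in all 7 libraries, the 21 at Pax7 had a median pileup percentile of 69.8 and a median fold percentile of 21.5, and the 7 at Pax3 had 56.2 and 56.5. A low rank by fold was shared by most Pax7 regions, and the region 5.32 kb inside Pax7, chosen after its values were seen, had the lowest median fold percentile of the 21, 0.925, at a median pileup percentile of 70.2.

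**Figure D2:**
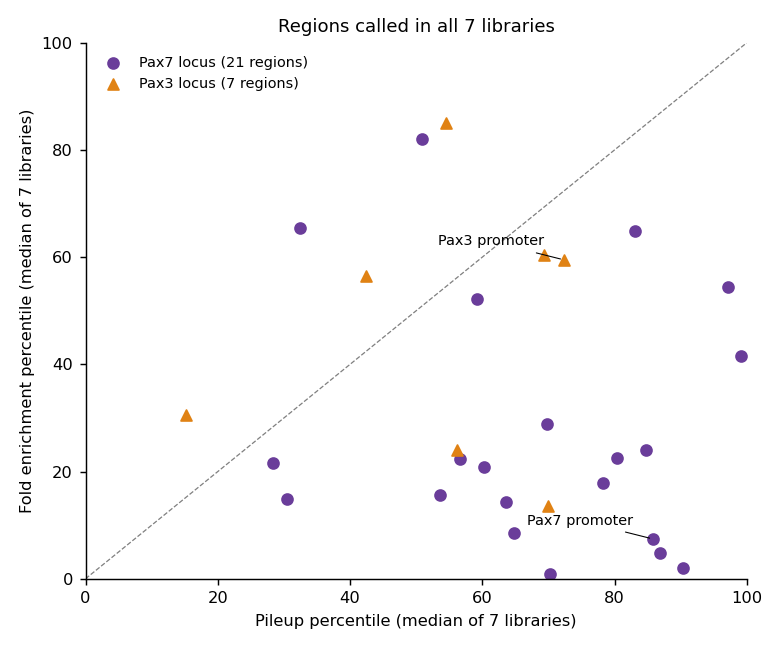
Each point is 1 region called in all 7 libraries, 21 at Pax7 (circles) and 7 at Pax3 (triangles), by its median pileup percentile (x axis) and median fold enrichment percentile (y axis) over the libraries, and the dashed line marks equal percentiles. Most Pax7 regions lie below the line, with the promoter at 85.8 and 7.42, while the Pax3 promoter lies near it at 72.4 and 59.5.

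Whether the loss of Nedd4l went with a different state of the loci was tested per library by an exact permutation test over the 35 splits of 7 libraries into 4 and 3 (two-sided, smallest p 0.0286), with Benjamini-Hochberg adjustment over 10 such tests. Each p is the share of splits whose difference in means was at least as large, in either direction, as the observed one. Nedd4L-cKO and WT libraries had 28.2 ± 2.06 (SD, n = 4) and 27.7 ± 3.06 (SD, n = 3) Pax7 peaks, respectively (p = 0.8286, exact permutation test). They had 8.25 ± 1.26 (SD, n = 4) and 8.67 ± 0.577 (SD, n = 3) Pax3 peaks (p = 0.714, exact permutation test). Covered length did not differ beyond the spread either (exact permutation test, p = 0.514 at Pax7 and p = 0.314 at Pax3).

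At the Pax7 promoter, the pileup percentile averaged 86.6 ± 1.01 (SD) over the 4 Nedd4L-cKO libraries and 83.3 ± 2.71 (SD) over the 3 WT libraries, with 1 WT library inside the Nedd4L-cKO range (exact permutation test, p = 0.0571, adjusted p = 0.286). Its fold percentile was 13.9 ± 8.45 (SD, n = 4) and 6.36 ± 0.926 (SD, n = 3) (exact permutation test, p = 0.114, adjusted p = 0.286), and its length did not differ beyond the spread (exact permutation test, p = 0.4). The difference in fold percentile of 7.52 points became 3.52 without Nedd4L-cKO replicate 1, and that in pileup percentile of 3.33 points became 1.90 without WT replicate 3, which is the value within lane 1.

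The Pax3 promoter went the other way. Its fold percentile was 57.5, 54.9, 59.5 and 59.1 in Nedd4L-cKO and 71.6, 64.2 and 60.1 in WT, so that all 4 Nedd4L-cKO libraries were below all 3 WT libraries, the nearest pair being 59.5 and 60.1. The means were 57.7 ± 2.10 (SD, n = 4) and 65.3 ± 5.82 (SD, n = 3), the unadjusted p was the smallest the design allows (exact permutation test, p = 0.0286), and the adjusted p was 0.286. The pileup percentile of this peak overlapped between the genotypes (72.7 ± 4.15, SD, n = 4, and 76.6 ± 5.43, SD, n = 3; exact permutation test, p = 0.314), as did its length (exact permutation test, p = 0.114). Without WT replicate 1, which had the highest fold percentile, the difference of -7.56 points became -4.42 points. Without WT replicate 3, which leaves the libraries of lane 1, it became -10.17 points.

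**Figure D3:**
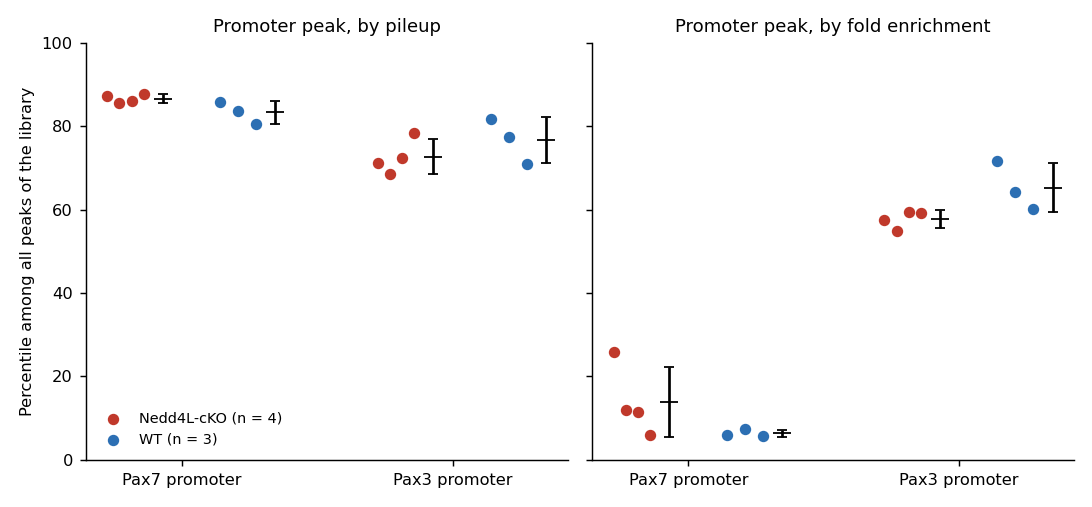
Percentile of the Pax7 and Pax3 promoter peaks among all peaks of each library, by pileup (left) and by fold enrichment (right), with 1 point per library (4 Nedd4L-cKO, 3 WT) and the mean ± SD in black. Pax7 sits at 80.4 to 87.6 by pileup and 5.74 to 25.9 by fold, and the groups are apart only for Pax3 by fold.

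Region by region, the 28 regions of both loci that were called in all 7 libraries were tested with limma on normal scores of the fold ranks, fitted over all 53245 such regions of the genome. At an adjusted p under 0.05, 0 of the 28 differed between genotypes, as did 0% of all regions, and the lowest adjusted p in the 28 was 1.00. At an unadjusted p under 0.05 the count was 0 of 28, beside 3.98% of all regions (1.77% in the direction of higher in Nedd4L-cKO), and with ranks by pileup it was also 0 of 28, beside 2.71%. At Pax7 11 regions had a positive difference (higher in Nedd4L-cKO) and 10 a negative one, with a median of 0.07 normal-score units. At Pax3 4 were positive and 3 negative, with a median of 0.09, and over all regions the median was 0.01. The limma difference was 0.33 units (SE 0.212, adjusted p = 1.00) for the Pax7 promoter and -0.24 units (SE 0.170, adjusted p = 1.00) for the Pax3 promoter.

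The lowest unadjusted limma p of the Pax7 locus belonged to a region 20.4 kb past its 3′ end, at chr4:139715926-139717434. Its fold percentile was 64.8, 55.8, 61.8 and 61.2 in Nedd4L-cKO and 70.2, 69.2 and 76.7 in WT, which limma put at -0.36 units with an SE of 0.170 and an adjusted p of 1.00. All Nedd4L-cKO libraries were below all WT libraries by fold, and by pileup they overlapped. At Pax3 the promoter had the lowest. These were the 2 of 28 regions in which the genotypes did not overlap by fold percentile, beside 4.96% of all regions, and by pileup percentile 0 of 28 did not overlap, beside 3.23%.

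**Figure D4:**
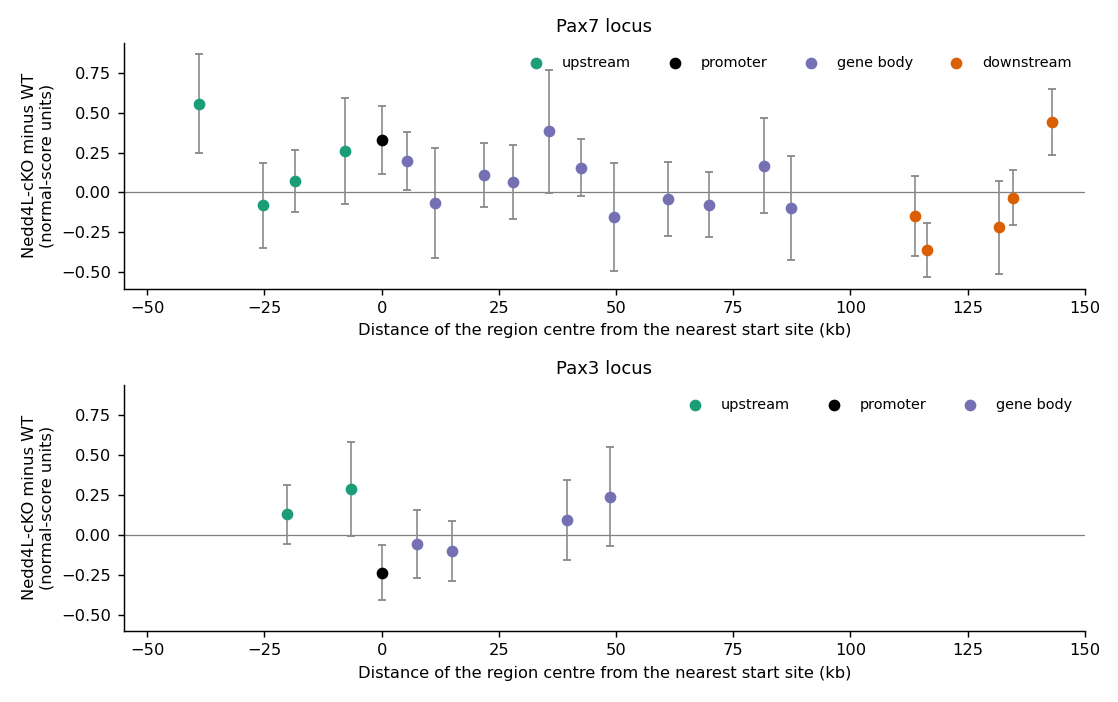
Difference in fold rank between Nedd4L-cKO and WT (limma, normal-score units, bars are ± 1 SE) for the 21 Pax7 regions (top) and 7 Pax3 regions (bottom) called in all 7 libraries, by the distance in kb of the region centre from the nearest start site. Differences fall on both sides of 0 at both loci, from -0.36 to 0.56 units at Pax7 and from -0.24 to 0.29 at Pax3.

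Presence or absence of a call parted the genotypes in 1 of the 44 regions. It lay 12.5 kb past the 3′ end of Pax7, at chr4:139724253-139724889, and was called in 3 of 3 WT and 0 of 4 Nedd4L-cKO libraries, beside 0.082% of all regions. Its peaks were weak, with pileups of 9.66, 8.48 and 8.18 (pileup percentiles 20.1, 10.7 and 18.4) and -log10 q of 1.64, 1.64 and 1.24, where peaks are called from 1. Called in all Nedd4L-cKO and no WT library were 0 of the 44 regions, beside 0.0694% of all regions. A region without a call can hold tags below the limit of the caller, so it was not shown to be closed.

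The promoters most like the 2 genes over the 7 libraries were found among 13589 others by the mean absolute difference in both percentiles. For Pax7 they were those of Znrd2 (3.26 points), Vat1 (3.57) and Zfp710 (3.64), each with a median pileup percentile of 83.5 to 88.4 and a fold percentile of 7.50 to 9.93. For Pax3 they were those of Dock10 (3.59), Cdk5r1 (3.67) and Abcc4 (3.73), with pileup percentiles of 74.2 to 79.0 and fold percentiles of 57.2 to 65.4.

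Of the other 7 paired-box genes, Pax2, Pax6 and Pax9 had a promoter peak in all 7 libraries, Pax1 in 5, Pax5 in 3, and Pax4 and Pax8 in none, where 63.4% of protein-coding genes with a TSS had one in all and 31.3% in none. Among those with a peak in all libraries, Pax2, a kidney and midbrain regulator, was nearest to Pax3 in pileup, with a median percentile of 70.8. Pax9 and Pax6 were at 42.8 and 40.4. Pax7 (85.8) and Pax3 (72.4) were thus the highest of the 9 family members by median pileup percentile. The Pax2 and Pax3 ranges overlapped, however (67.1 to 73.8 and 68.6 to 81.7). By fold the order among the members with a peak in all libraries was different. Median fold percentiles were 59.5 for Pax3, 52.5 for Pax9, 12.95 for Pax2, 7.42 for Pax7 and 6.82 for Pax6. Pax7 was above Pax6 alone among them.

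Of 6 genes whose products work with PAX7 or PAX3, 5 had a promoter peak in all 7 libraries, beside the 63.4% of all genes. The adaptor gene Paxbp1, the arginine methyltransferase gene Carm1, which methylates PAX7, and Wdr5, Kmt2d and Kmt2b of the H3K4 methyltransferase complexes were at median pileup percentiles of 91.9 to 99.2. The median over promoters with a peak was 86.8. Ash2l had 0 peaks within 1 kb of the start used here in all libraries. Of 8 target genes, 8 had a promoter peak in all 7. Among them the median pileup percentile ran from 51.5 for Itm2a to 99.5 for Id3, with the myogenic factor gene Myf5 at 87.1 and the receptor genes Met, Cxcr4 and Fgfr4 at 93.4, 96.3 and 83.9. By fold the targets were spread widely, with median fold percentiles of 0.165 for Id3, 3.41 for Cxcr4, 5.25 for Myf5, 12.5 for Lbx1, 35.3 for Dmrt2, 37.8 for Fgfr4, 59.7 for Itm2a and 71.3 for Met, beside 7.42 for Pax7. The 5 partner genes with a peak had 49.3 to 88.1, and the median over promoters with a peak was 79.6. Of the promoter regions shared by all libraries in these lists, 0 of 3, 0 of 5 and 0 of 8 differed between genotypes by limma (adjusted p under 0.05), beside 0% of all regions. An unadjusted p under 0.05 was reached by 0 of them, beside 3.98% of all regions.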

How the data were processed

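ATAC-seq libraries of MuSCs (4 Nedd4L-cKO, 3 WT, grouped by the genotype in their labels) were analysed from the authors' peak lists, 1 set per library with no pooling. Per the study's methods and the submitters' processing notes, reads were trimmed with Trimmomatic 0.39, aligned to mm10 with BWA-MEM 0.7.17, filtered with SAMtools and cleared of duplicates with Picard 2.26.3. Per the file headers, MACS2 2.2.7.1 called broad peaks (q cutoff 0.1) without a control and without paired-end mode, keeping 1 tag per position. The deposited pileup is a signal, the coverage by extended tags, without scaling to depth. Fold enrichment was deposited as the ratio (pileup + 1)/(local background + 1), and significance (p-value, q-value) was deposited as -log10. The score in the authors' gapped list was not analysed, and that list served to mark broad peaks that hold a narrow peak.

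Gene spans came from RefSeq on GRCm38.p6, and coordinates are 1-based on mm10. Strands came from the RefSeq promoter set where it held the gene, and otherwise from GENCODE by symbol. Start sites were those of that promoter set together with the 5′ end of the gene span. A promoter peak overlapped a TSS ± 1 kb. Peaks of all libraries that overlapped by 1 bp or more were merged into regions, and each library's highest value per region was ranked within the library. The local background was computed from pileup and fold. The regions called in all 7 libraries were fitted with limma 3.58.1 (lmFit, eBayes, Benjamini-Hochberg) in R 4.3.3, with all libraries and no covariate. No libraries shared an identical peak (0 in any pair). With 4 and 3 libraries, small differences are not detectable. The lists give no reads per site, so no counting interval was computed. Python 3.11.15 (pandas 2.3.3, scipy 1.17.1, numpy 2.4.6) served for the rest.

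The 2 genes, the gene lists and the tests were chosen with earlier results of these data known. Regions named singly are the promoters, the 3 strongest non-promoter regions per locus by median pileup percentile, the lowest limma p per locus, those that part the genotypes, and those at another gene's start in a window. The genes most alike are the 3 nearest per member. Regions outside this rule are marked as chosen after their values were seen, and the regions around the 3′ end of Pax7 were also chosen in that way. Alternatives were a -log10 q of at least 5, equal peak numbers, peaks with a narrow peak, windows of 10 and 100 kb, and a TSS window of 2.5 kb. Further ones were a stricter overlap rule for peaks at the window edges, other ranks, other limma settings, a replicate block and leaving out each library.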

Additional observations from a re-analysis of the deposited data

Results flagged for a closer look

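The length of the Pax7 promoter peak in Nedd4L-cKO replicate 1, 1528 bp, stood apart from the other 3 Nedd4L-cKO libraries (1923 to 1961 bp), with a gap to the nearest that was 0.912 of the range of the group. The same library had the highest fold percentile of this peak (25.9) and its peak reached 564 bp upstream of the outer start, beside 968 to 1033 bp in the other 6 libraries. Chance alone puts about 1 of 20 groups of this size past the limit used, and 11 measures were examined. The part that the shorter call had in the higher fold was not tested.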

How the results depend on the processing

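Of 165 recomputed values, 145 were taken as kept. For a test this means the same direction and the same side of the threshold. For a count of regions it means the same number, whichever genotype held the calls. Of the 145, 81 left out a library. There the exact permutation tests between genotypes have too few splits to pass, so these values say little about stability. The stricter overlap rule at the window edges repeated the values given above, so it adds no check. The fold percentile of the Pax3 promoter stayed lower in Nedd4L-cKO under every alternative run. It still passed unadjusted with peaks that hold a narrow peak (-10.5 points) and with percentiles among promoter peaks (-8.07 points; exact permutation test, p = 0.0286 in each). A TSS window of 2.5 kb repeated every promoter value given above (-7.56 points here), so it is no separate check. The Pax3 difference did not pass with a -log10 q of at least 5 (-10.05 points, exact permutation test, p = 0.0571) or with equal peak numbers (-8.03 points, exact permutation test, p = 0.0571). Without each library in turn it was -10.17 to -4.42 points. With a replicate block, in which replicates 1 to 3 were permuted within their numbers and Nedd4L-cKO replicate 4 was left out, it was -8.00 points (exact permutation test, p = 0.25, the smallest of 8 patterns), and the difference in Pax7 peak number became -0.33. The deviations of samples with the same number had r = -0.123, 0.033 and -0.122, and those with different numbers had r = -0.151 to 0.154. So few pairs cannot decide whether the numbers pair the libraries. The block could change no other call of the exact permutation tests, as no other measure in it had passed and its smallest p was 0.25.

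The difference in Pax3 peak number was 0.083 and that in covered length 0.75 kb with a -log10 q of at least 5, and with peaks that hold a narrow peak the number differed by -1.33 (exact permutation test, p = 0.0286). WT replicates 1 and 2 had narrow peaks in 92.5% and 92.8% of all their broad peaks and the other libraries in 84.7 to 87.3%, and its part in that result was not tested. Leaving out each library gave differences of -0.75 to 2.25 peaks at Pax7, reversed without Nedd4L-cKO replicate 4 or WT replicate 2, and of -1 to 0 peaks at Pax3, with 0 without Nedd4L-cKO replicate 1. The count of 1 region that parted the genotypes was 0 with a -log10 q of at least 5, 0 with peaks that hold a narrow peak and 0 in a 10 kb window. With equal peak numbers it was 1 other region, called in Nedd4L-cKO alone. The limma count stayed 0 in all 13 alternatives, where 0 or 1 region of the loci had an unadjusted p under 0.05. With a -log10 q of at least 5 the Pax7 promoter was no longer called in WT replicate 3, so its percentiles and length gave no test there. The causes were not tested.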
